A study of Drosophila melanogaster with 9 samples.

Results

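The genes described here were higher in Apc-Ras-Sna metastases at round T10 of transplantation than at every earlier measurement. A probe set, the group of array probes that reports 1 transcript, was chosen when the lowest of its 3 T10 values lay above the highest of all 6 T1 and T2 values and its T10 mean exceeded the mean of those 6, called the early arrays below, by at least 0.7 on the log2 scale. Of 18769 probe sets, 312 met these values (1.66%), and 2 of them were left out by name, which leaves 310. Of the 310, 232 carry a single gene symbol and stand for 212 genes, 4 carry several symbols, and 74 have no symbol in the platform annotation and are unnamed here. Since the probe sets were chosen by their T10 and early values, these are given below as a description with no test, and only T2 against T1, which the rule does not set against each other, was tested. The rule still bounds the T2 and T1 values from above by T10, so that probe sets with a T2 or T1 array at the T10 level are not among those tested.

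Expression was measured on 9 single-color Affymetrix arrays, 3 for each round. The tumors arose from MARCM clones induced by heat shock in the adult female gut, with a null allele of Apc and a loss-of-function allele of Apc2, and expressed UAS-RasV12, UAS-Snail and UAS-GFP under esg-Gal4, a driver of intestinal progenitor cells. Macrometastases from the abdomens of 3 flies were passed serially into young adult yw females, kept at 25 °C per the labels though the methods state a higher temperature, and a piece was taken for RNA at rounds T10, T2 and T1. All 9 samples thus share genotype, transgenes and driver. No gut and no metastasis that had not been transplanted is among them, and host tissue may be part of any piece. Samples of a round are labeled as technical replicates whereas the design names 3 metastases, so p-values below measure the spread between these samples, which may be in part technical. From 25 ng of total RNA, cDNA was amplified over 17 cycles. The array of T2 replicate 3 correlated across probe sets, which are not independent, at 0.964 to 0.984 with the T10 arrays and at 0.932 to 0.957 with the other early arrays. The values below take its label as given, and whether that label is right was not tested, so a T2 mean and the description as higher only at T10 depend on it. Array medians ran from 6.49 to 6.73 log2.

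Epithelia of the fly carry an apical matrix of zona pellucida proteins, mucins and chitin, and their cells are sealed by septate junctions, which are pleated in ectodermal tissues such as epidermis and trachea and smooth in the midgut. The cells also align across the plane of the tissue through the Fat and Dachsous cadherins and the Frizzled group, and the Hippo pathway relays cell contact to growth. In adult midgut, esg marks stem cells and their enteroblast daughters.

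Across the 310 probe sets the T10 mean exceeded the early mean by a median of 1.34 log2 (2.54-fold), between 0.70 and 5.45. The difference was at least 1 log2 in 217 probe sets, at least 2 in 82, at least 3 in 22 and at least 4 in 6. The clearance, which is the lowest T10 value minus the highest early value, was far smaller than the difference in most of them. Over all probe sets, with no limit on size, 996 (5.31%) had every T10 value above every early one and 1080 (5.75%) the reverse. In the 310 the clearance had a median of 0.18 log2, was under 0.1 in 89 probe sets and reached 0.7 in only 17. In 108 probe sets the value was above the array median on all 9 arrays, in 41 it was below it on all 9, and in 17 it was below on all 6 early arrays and above on all 3 T10 arrays. The same rule turned round, with every T10 value below every early one, was met by 585 probe sets.

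**Figure D1:**
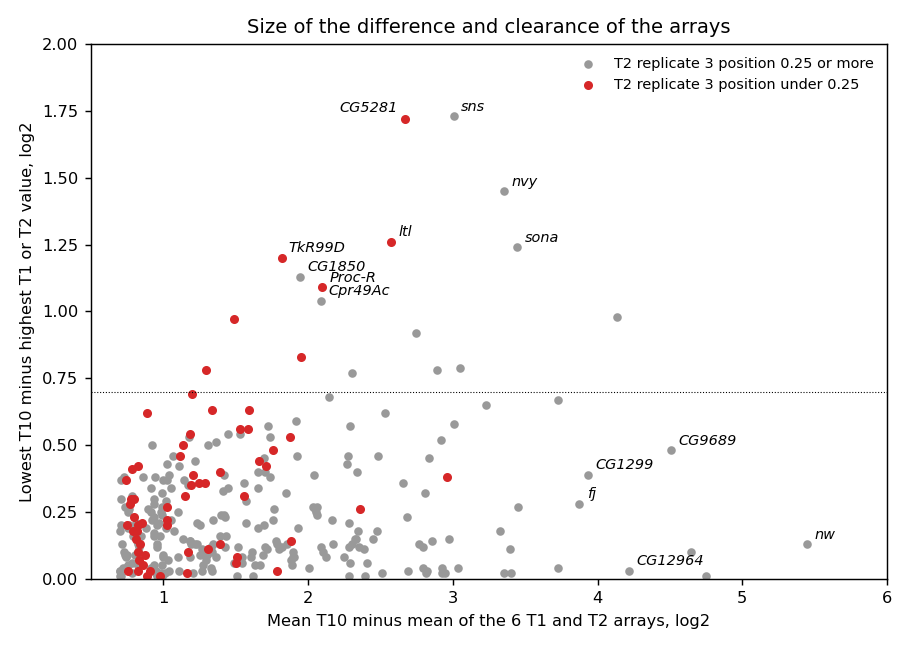
Mean T10 minus mean early value (horizontal, log2) against the lowest T10 minus the highest T1 or T2 value (vertical, log2) for the 310 probe sets, each a point. Red points are the 63 probe sets in which T2 replicate 3 lay less than 0.25 of the way to T10, and the dotted line at 0.7 has 17 points above it, among them sns and nvy, while nw has the largest difference and a clearance of 0.13.

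Just inside the limit of 0.7 stood CG8854, CG15471 and an unnamed probe set, all at 0.70 with rounding, and just outside it btv and CG6753 at 0.698 each and an unnamed probe set at 0.687. On the side of the overlap, Bgb, vir-1 and an unnamed probe set cleared the early arrays by 0.01, and 3 unnamed probe sets whose lowest T10 value equalled the highest early value, a clearance of 0, were left out.

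The array that came closest to T10 was most often T2 replicate 3. It was the highest early array in 241 of the 310 probe sets (77.7%), against 21% of all probe sets. For each probe set its position was computed between the mean of the other 5 early arrays, set at 0, and the mean of T10, set at 1. The rule holds the position below that of the lowest T10 array but sets no lower limit. The median position was 0.536 (quartiles 0.330 and 0.780), with 175 probe sets above 0.5, 90 above 0.75, 63 under 0.25 and 16 under 0. The other early arrays were each placed against the mean of the remaining early arrays, with T2 replicate 3 left out of that mean. Their medians lay between -0.0618 and 0.0913, the highest being T1 replicate 3, which lay above 0.25 in 87 probe sets.

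Relative to the T1 mean, the median of the 310 probe sets stood at 1.68, 1.69 and 1.18 log2 in T10 replicates 1, 2 and 3. It stood at -0.08, -0.015 and 0.78 in T2 replicates 1, 2 and 3, and at -0.03, -0.08 and 0.10 in the 3 T1 arrays. T2 replicate 3 was by far the most raised of the early arrays, and T10 replicate 3 was the least raised of its round. The T1 mean includes each T1 array, which makes the shift of that array smaller. The medians over all probe sets lay between -0.07 and 0.01. T10 replicate 3 was the lowest T10 array in 206 of the 310 probe sets and the highest in 23, where T10 replicates 1 and 2 were the highest in 143 and 144.

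**Figure D2:**
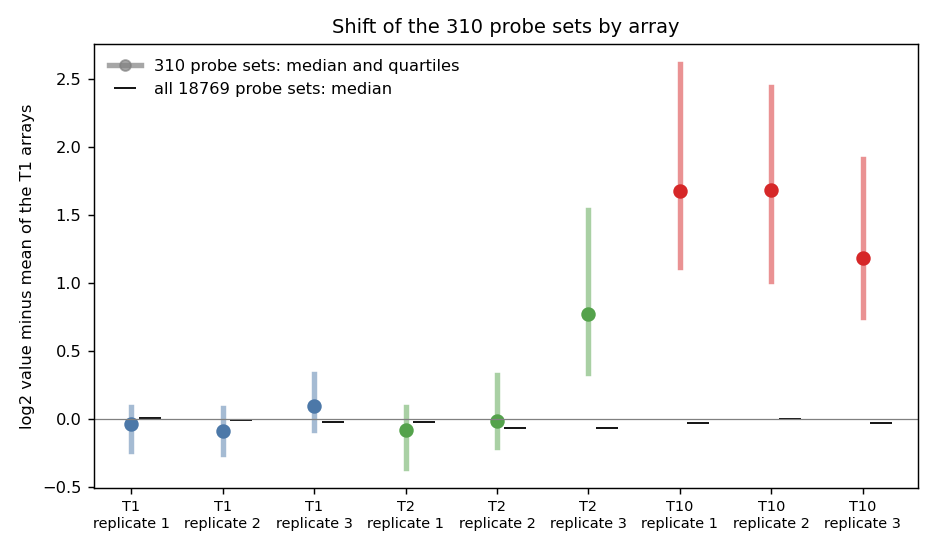
Log2 value minus the mean of the T1 arrays for the 310 probe sets on each of the 9 arrays, as the median (point) and quartiles (bar), with the median of all 18769 probe sets as a black dash. The T2 replicate 3 median of 0.78 lies between the other early arrays, at -0.08 to 0.10, and the T10 arrays, at 1.18 to 1.69.

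**Figure D3:**
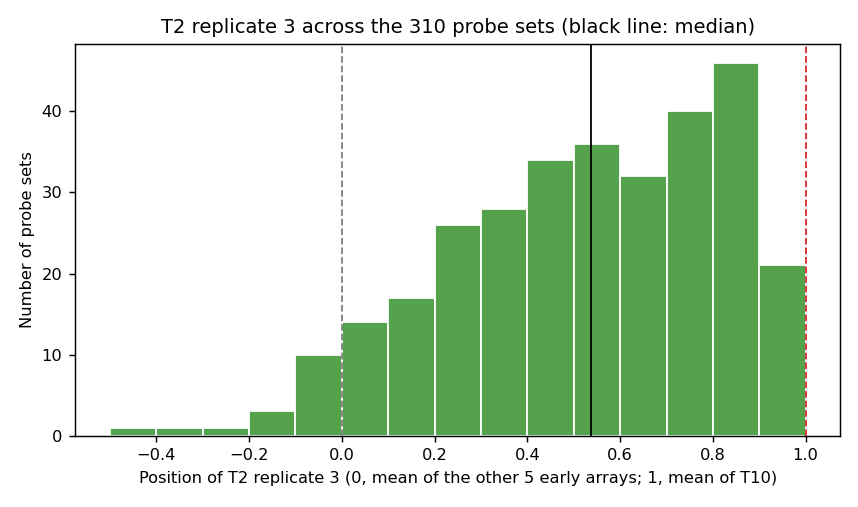
Number of probe sets (vertical) by the position of T2 replicate 3 (horizontal), where 0 is the mean of the other 5 early arrays and 1 the mean of T10, both drawn as dashed lines. The median of the 310 probe sets, the black line, is 0.536, and 90 probe sets lie above 0.75.

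T2 was compared with T1 within the bound that the rule sets on both. In limma fitted to the 3 rounds, none of the 310 probe sets reached an adjusted p under 0.05 (smallest adjusted p = 0.76), where 1 of all 18769 probe sets did (0.00533%). At an unadjusted p under 0.05 there were 19, all higher in T2, and the share of all probe sets that was higher in T2 at that level was 2.01%. The T2 mean was the higher in 249 of the 310 (80.3%), against 42.2% of all probe sets, and the median T2 minus T1 difference was 0.23 log2, against -0.03. That shift rested on 1 array. Without T2 replicate 3 the median was -0.05, the T2 mean was the higher in 133, and 15 passed at an unadjusted p under 0.05, of which 7 were higher in T2, where 1003 of all 18769 probe sets passed at that level.

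A few genes were above T1 in all 3 T2 arrays. The lowest T2 value exceeded the highest T1 value in 16 of the 310 probe sets, against 2.57% of all, and the reverse held in 3, against 6.86%. Prosap, the Shank scaffold gene, was 1 of the 16. Its probe set 1629160_s_at read 10.10, 9.92 and 9.66 in T10, 8.30, 8.78 and 9.54 in T2, and 7.16, 6.49 and 8.18 in T1. The T2 minus T1 difference was 1.60 log2 (standard error 0.452, adjusted p = 0.76 in limma), so it did not pass, although the arrays of the 3 rounds did not overlap. Rcd2 also stood apart between T2 and T1, at 9.35, 9.24 and 9.04 in T2 and 8.23, 8.45 and 8.89 in T1, a difference of 0.69 (standard error 0.229, adjusted p = 0.76), with 10.29, 9.55 and 9.84 in T10. The gene body of Rcd2 overlaps that of CG13250, also a member, and whether their probes lie in shared sequence was not checked. Without T1 replicate 3, 2 probe sets passed, 1637168_at (difference 1.60, adjusted p = 0.0317) and 1636281_at (1.24, adjusted p = 0.0472), both higher in T2 and both unnamed.

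Genes of the apical matrix and cuticle gave the largest value in the set. The gene nw, or narrow, which encodes a secreted C-type lectin-like protein needed for wing shape, read 12.93, 13.08 and 12.62 in T10, against 5.07 to 12.49 in the early arrays (median 6.18), a difference of 5.45 log2 (43.6-fold). The 12.49 was T2 replicate 3, and the next early array was T1 replicate 3 at 9.27. The other 4 early arrays lay between 5.07 and 6.52, so nw was low in 4 early arrays, intermediate in 1 and within 0.13 of the lowest T10 array in 1.

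The gene pot (papillote), whose zona pellucida protein anchors epidermis to cuticle, read 11.40, 11.03 and 10.78 in T10, against 4.87 to 10.51 (median 7.71), again with T2 replicate 3 on top. The mucin-like matrix gene tnc (tenectin) behaved differently. At 1624677_at it read 8.27, 11.02 and 8.14 in T10, against 5.63 to 7.35 (median 5.95), so that T10 replicate 2 stood far above the other T10 arrays and T2 replicate 3 lay at a position of 0.457. Its other probe set, 1641261_at, read 6.57, 8.55 and 6.58 in T10, against 5.91 to 6.18, and was raised by 1 log2 or more in T10 replicate 2 alone.

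Cpr49Ac, a gene for a chitin-binding cuticle protein, cleared the early arrays by 1.04 log2, at 7.96, 7.61 and 8.45 in T10 and 5.07 to 6.57 (median 6.01) in the early arrays, with T2 replicate 3 at 6.41. The pigment gene y (yellow) read 9.84, 8.21 and 8.56 in T10, against 5.77 to 7.64 (median 6.38), where the highest early array was T1 replicate 2. The leucine-rich repeat genes ltl (larval translucida) and conv (convoluted), the second needed for tracheal tube shape, differed from each other. For ltl the T10 values of 8.82, 9.36 and 8.10 lay 1.26 log2 or more above every early value, with T2 replicate 3 at 6.49. For conv they were 9.11, 9.35 and 9.03, and T2 replicate 3 was at 8.76.

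Cell junction and polarity genes were the largest of 12 role groups, with 15 genes and differences between 0.92 and 2.69 log2. The groups were drawn up after the values had been seen and cover 88 of the 212 genes. Their sizes reflect that choice, since genes of these roles were not counted over the whole array. In 13 of the 15 the position of T2 replicate 3 was above 0.5, at a median of 0.751. Gli (Gliotactin), which encodes a protein of tricellular junctions, read 10.09, 9.56 and 9.19 in T10, against 6.27 to 8.79 (median 7.09), 5.05-fold. The claudin gene sinu (sinuous) read 10.33, 10.16 and 10.46 in T10, against 8.52 to 10.07 (median 8.89), 2.47-fold. Both were highest among the early arrays in T2 replicate 3. Nrx-IV, a transmembrane core component of septate junctions, averaged 8.01 ± 0.44 (SD, n = 3) over the T10 arrays and 6.93 ± 0.45 (SD, n = 6) over the early ones. The junction genes cold and bark (bark beetle) differed less than 2-fold, cold at 11.09 ± 0.07 (SD, n = 3) in T10 against 10.18 ± 0.49 (SD, n = 6) early, and bark at 11.27 ± 0.10 (SD, n = 3) in T10 against 10.30 ± 0.40 (SD, n = 6) early.

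These 5 are the members among 23 pleated septate junction genes, beside 1.77% of all named genes, in a list drawn up apart from the rule but with results of these arrays known. With 1 probe set a gene, 6 of the 23 had every T10 value above every early one, the 5 and nrv2, and 0 had the reverse, beside 5.17% and 6.91% of all 11982 named genes. The list's median difference was 0.86 log2, against -0.01 for all named genes. Of 4 smooth septate junction genes, 0 were members and their median difference was -3.63.

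The apical polarity gene sdt (stardust), partner of Crumbs, was a member at 2 probe sets, with differences of 1.34 and 0.99 log2. Its other 4 probe sets differed by 0.04 to 0.82, and 1 of them had no overlap. The adhesion gene ed (echinoid) read 9.60, 9.58 and 9.37 in T10, against 6.86 to 9.24 (median 7.45), and sdk (sidekick), found at tricellular adherens junctions, 9.37, 8.96 and 8.11, against 6.73 to 7.89 (median 6.93). Among the early arrays T2 replicate 3 was the highest for both. Inx2, a gap junction innexin gene, had a mean of 12.10 ± 0.11 (SD, n = 3) at T10 and of 10.82 ± 0.91 (SD, n = 6) early.

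Cad87A was the junction gene in which T2 replicate 3 was not raised at the probe set with its largest difference. At this probe set, 1641575_at, Cad87A read 9.84, 9.88 and 9.07 in T10, against 7.67 to 8.44 (median 8.36), with T2 replicate 3 at 8.32. At its other member probe set, 1628239_at, the T2 mean exceeded the T1 mean by 0.78 log2, and by 0.745 without T2 replicate 3. Cad96Cb, also a cadherin gene, read 8.76, 9.09 and 8.24 in T10, against 6.59 to 7.84 (median 6.97). These were 2 of 12 cadherin genes, beside 1.77% of all named genes, and the list's median difference was 1.10 log2. At the brighter probe set of Cad96Cb the groups overlapped (difference 0.86).

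Among cell surface genes, sns (sticks and stones), a nephrin-like immunoglobulin gene of myoblast fusion, cleared the early arrays more than any other probe set. It read 7.54, 7.90 and 7.37 in T10, against 4.11 to 5.64 (median 4.42), a clearance of 1.73 log2 and a difference of 3.01 (8.04-fold). T2 replicate 3 held the 5.64, a position of 0.389. The teneurin genes Ten-a and Ten-m, which encode transmembrane proteins of synaptic matching, showed the opposite form. Ten-a read 11.24, 11.69 and 11.20 in T10 and 11.06 in T2 replicate 3, with the other early arrays at 7.04 to 9.12. Ten-m read 8.59, 8.93 and 8.62 in T10 and 8.55 in T2 replicate 3, with the others at 4.53 to 6.35. The Netrin receptor gene unc-5 cleared T2 replicate 3 by only 0.01 log2, at 9.13, 8.87 and 7.85 in T10. Its other probe set differed by 0.98 with overlap.

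In the group of planar polarity, Hippo and cytoskeleton genes, 13 genes differed by 0.82 to 3.88 log2 and T2 replicate 3 lay at a median position of 0.815. The gene fj (four-jointed), which encodes a Golgi kinase that modifies Fat and Dachsous, read 11.23, 11.00 and 11.27 in T10, against 4.91 to 10.72 (median 7.34), 14.7-fold. Its early arrays were spread over nearly 6 log2, with T2 replicate 2 at 8.26 and T1 replicate 3 at 8.25 between the lowest and T2 replicate 3. The upstream Hippo gene ex (expanded) read 10.08, 10.43 and 9.64 in T10, against 7.86 to 9.63 (median 8.30). Of 15 Fat, Dachsous and Hippo genes these 2 were members, beside 1.77% of all named genes, and the list's median difference was 0.16.

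The filamin gene jbug (jitterbug) and the unconventional myosin gene Myo10A had the same form as fj. For jbug the T10 arrays were at 11.09, 10.79 and 10.83, T2 replicate 3 at 10.64, and the other early arrays at 6.38 to 8.71. For Myo10A they were at 9.84, 9.84 and 9.51, T2 replicate 3 at 9.40, and the others at 4.35 to 7.19. Both show 3 levels, with T2 replicate 2 and T1 replicate 3 between the lowest early arrays and T2 replicate 3.

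**Figure D4:**
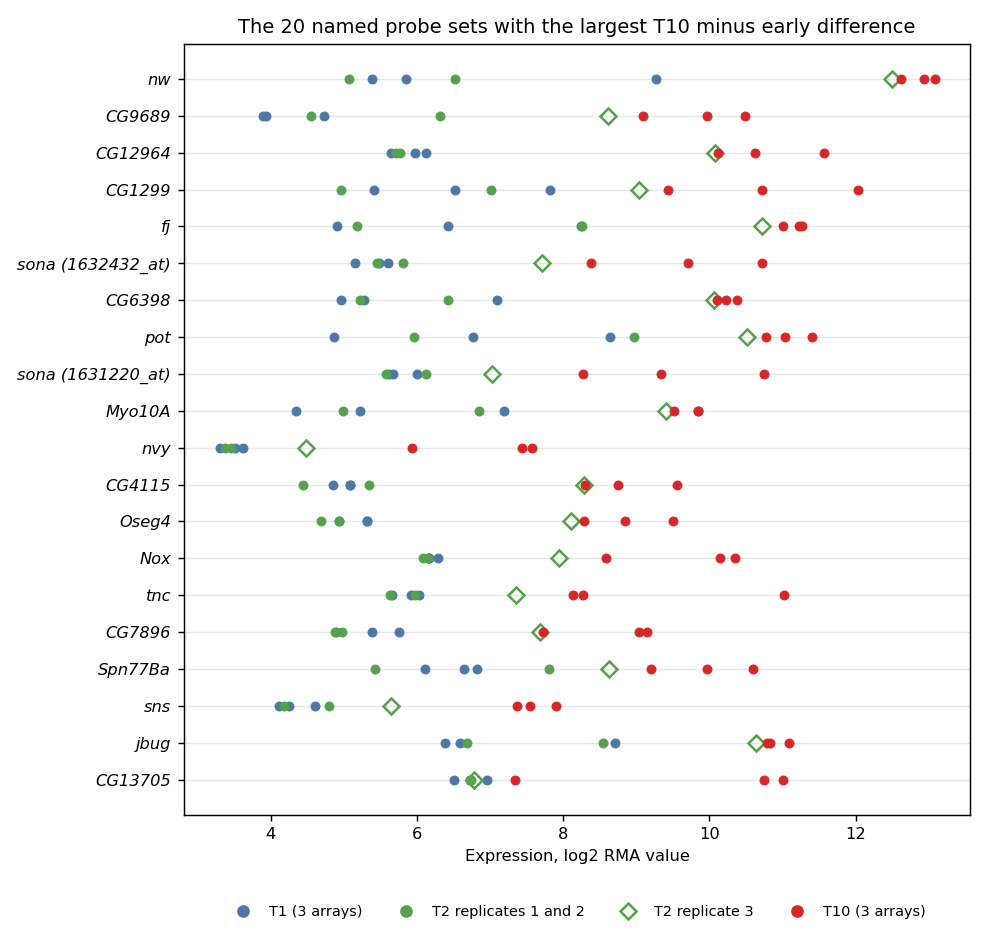
Log2 values of the 20 named probe sets with the largest T10 minus early difference on all 9 arrays (T1 blue, T2 green, T10 red), with T2 replicate 3 as an open diamond. In nw, CG6398, Myo10A and jbug the diamond touches the T10 points, in sns and nvy it stays over 1.4 log2 below them, and in CG13705 it lies among the other early arrays.

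Genes of extracellular proteases and their inhibitors varied most among the T10 arrays, with a median range of 1.73 log2 within T10. The ADAMTS metalloprotease gene sona was a member at 3 probe sets. At 1632432_at it read 10.72, 9.70 and 8.38 in T10, against 5.15 to 7.71 (median 5.54), and at 1631220_at 10.74, 9.34 and 8.27, against 5.58 to 7.03 (median 5.83). At 1636278_at it read 9.09, 6.45 and 5.99, against 5.58 to 5.68. All 3 probe sets ranked T10 replicate 1 highest and T10 replicate 3 lowest, yet T2 replicate 3 was raised at the first 2 and was level with the other early arrays at the third.

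Serpins, which block serine proteases, were represented by Spn77Ba, an inhibitor of tracheal melanization, at 10.59, 9.96 and 9.20 in T10 against 5.43 to 8.62 (median 6.74). Spn47C read 11.75, 11.46 and 10.43 in T10, against 7.90 to 9.65 (median 8.01). Among the serine protease genes, gd (gastrulation defective) and ea (easter), which act in the dorsoventral cascade of the embryo, and Sp7, which acts in melanization, differed by 1.89, 1.20 and 1.74 log2.

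Transcription regulators included nvy (nervy), a corepressor gene of the ETO family, at 7.43, 7.58 and 5.93 in T10 against 3.30 to 4.48 (median 3.48). Its clearance was 1.45 log2, while its early values all lay below the array medians, and with values below 5 set to 5 the difference of 3.36 became 1.98. The gene ovo, whose shavenbaby product drives epidermal trichomes, read 9.72, 9.96 and 9.34 in T10 and 9.32 in T2 replicate 3, with the others at 5.05 to 7.40. The homeobox gene lbe (ladybird early) was the 1 regulator highest in T10 replicate 3, at 6.68, 5.73 and 8.51 in T10, against 4.51 to 5.51. The zinc finger gene rn (rotund) was highest in T10 replicate 2, at 7.16, 9.91 and 6.70, against 5.87 to 6.17.

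Signals and receptors were the group in which T2 replicate 3 was least raised, with a median position of 0.245 over 10 genes and 5 under 0.25. Ilp8, a relaxin-like peptide gene made by damaged or overgrowing imaginal discs, was an exception. It read 11.41, 11.63 and 11.54 in T10 and 11.37 in T2 replicate 3, with the other early arrays at 7.52 to 8.37. The TNF receptor gene wgn (wengen) was graded, at 9.09, 9.52 and 9.15 in T10, 7.50, 8.02 and 8.97 in T2, and 6.50, 5.87 and 8.44 in T1.

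Among the receptor genes, TkR99D, Proc-R and LpR2 cleared the early arrays by 1.20, 1.09 and 0.97 log2. TkR99D, a tachykinin receptor gene, read 7.39, 7.64 and 7.04 in T10, against at most 5.84 (median 5.55) early, with T2 replicate 3 at 5.45, below the median. Proc-R, the proctolin receptor gene, read 8.26, 8.89 and 7.67 in T10, against 5.82 to 6.58 (median 6.13). The lipophorin receptor gene LpR2 read 6.17, 5.79 and 5.92 in T10, against 3.69 to 4.82 (median 4.66), and T2 replicate 3 was at 4.74. All of its values, those of T10 included, lay below the array medians. Sdr, whose secreted product binds insulin-like peptides, read 6.44, 6.52 and 5.84 in T10, against 3.91 to 5.25. In these 4 genes the T10 arrays lay within 1.3 log2 of each other.

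In redox metabolism, the NADPH oxidase gene Nox was a member at both of 2 probe sets. At 1634345_at it read 10.35, 10.14 and 8.59 in T10, against 6.08 to 7.94 (median 6.16), and at 1630014_at 11.41, 11.58 and 10.65, against 7.62 to 10.20 (median 8.01). In both the 5 early arrays other than T2 replicate 3 lay within 1 log2 of each other. Cbs, which encodes cystathionine beta-synthase, had a mean of 12.29 ± 0.16 (SD, n = 3) at T10 and of 10.74 ± 0.79 (SD, n = 6) early.

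Of heparan sulfate and basement membrane genes, Sulf1, a sulfatase gene that trims heparan sulfate, read 10.57, 10.50 and 9.67 in T10, against 7.02 to 9.66 (median 7.67). The glypican gene dlp had a mean of 11.59 ± 0.16 (SD, n = 3) at T10 and of 10.29 ± 0.71 (SD, n = 6) early. The perlecan gene trol was a member at 1 of its 8 probe sets, with 9.39, 9.24 and 8.88 in T10 against 8.11 to 8.67. At the other 7 the difference ran from -0.26 to 0.63.

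The cell cycle genes CycE and Cdk4 had small differences with little spread in T10. CycE read 8.56, 8.49 and 8.60 in T10, against 7.18 to 8.34 (median 7.76), with T2 replicate 3 at 7.77. Cdk4 read 10.10, 10.18 and 10.15 in T10, against 8.70 to 9.85 (median 9.15), with T2 replicate 3 at 9.85. The caspase gene Dcp-1 read 9.39, 9.55 and 9.36 in T10, against 8.16 to 9.31.

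By contrast, 69 of the 310 probe sets fell under a difference of 0.7 log2 once a single T10 array was left out, and 241 did not. Leaving out T10 replicate 1 took 44 under it, T10 replicate 2 took 23 and T10 replicate 3 took 6. The matriptase-like protease gene Np (notopleural) read 10.54 in T10 replicate 1 and 5.98 and 6.03 in replicates 2 and 3, against 5.43 to 5.84 in the early arrays, and its difference of 1.88 was 0.37 without replicate 1. Its second probe set, 1631823_at, repeated this with 9.18, 5.87 and 5.94. The paired-type homeobox gene gsb-n (gooseberry-neuro) read 7.47, 4.03 and 3.93 in T10, against 3.43 to 3.85, and the cuticle-related Osiris gene Osi9 7.10, 4.55 and 4.59, against 3.81 to 3.99.

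The same array was high in CCAP-R, the crustacean cardioactive peptide receptor gene, at 9.20, 6.15 and 6.95 in T10 against 5.69 to 6.09. It was also high in PGRP-LB, whose product degrades peptidoglycan, at 8.40, 6.71 and 6.88 against 5.85 to 6.69. In these genes the choice of a probe set turned on clearances of 0.02 to 0.56 log2 in the remaining T10 arrays.

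**Figure D5:**
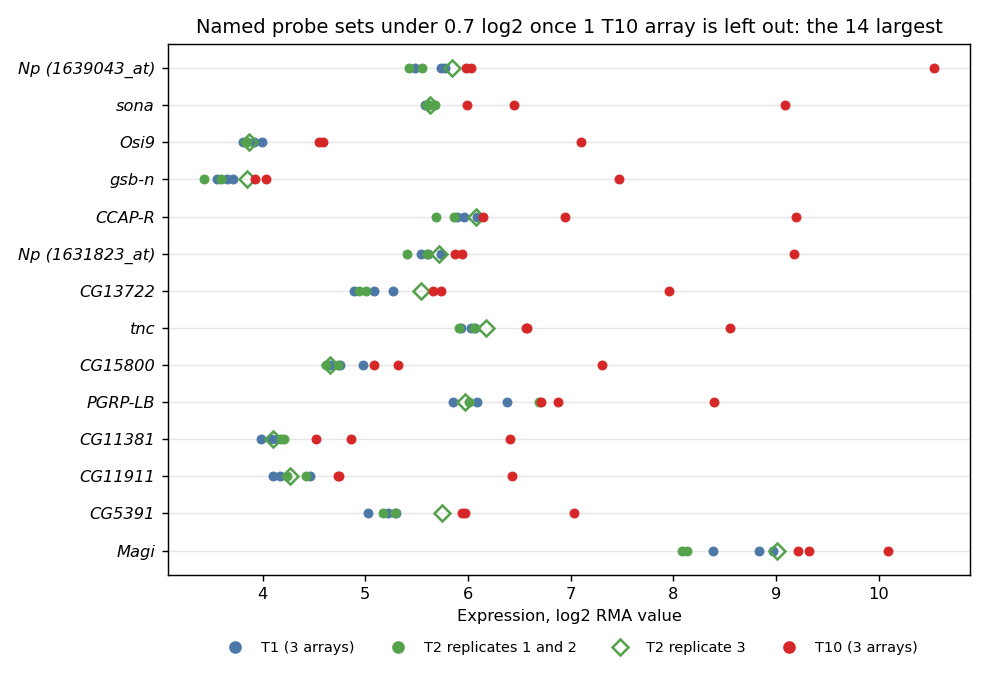
Log2 values on all 9 arrays (T1 blue, T2 green, T10 red, T2 replicate 3 an open diamond) of the 14 named probe sets with the largest difference among those that fell under 0.7 log2 without 1 T10 array. In each a single red point is the farthest from the early arrays, such as Np at 10.54, where the other 2 T10 points lie at 5.98 and 6.03.

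The rule ties the position of T2 replicate 3 to the spread within T10, since every T10 value has to exceed that array and a high position leaves room only for a small range and clearance. The values of the classes are therefore a description. The 63 probe sets with a position under 0.25 (46 genes) had a median range within T10 of 1.3 log2 and a median clearance of 0.3, and 32 of them fell under 0.7 without 1 T10 array. The 90 with a position above 0.75 (66 genes) had a median range of 0.4 and a median clearance of 0.09, and 3 fell. T1 replicate 3 was also raised in the second class, at a median position of 0.227, against 0.0308 in the first. The classes were set after the values had been seen. The 6 largest clearances were those of sns (1.73, position 0.389), CG5281 (1.72, 0.211), nvy (1.45, 0.291), ltl (1.26, 0.139), sona at 1631220_at (1.24, 0.337) and TkR99D (1.20, -0.0589).

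Other probe sets of the same genes mostly pointed the same way. For 39 of the 212 genes the array holds 74 further probe sets outside the 310. These are the ones that did not meet the rule, since any that met it are among the 310. The choice thus favors small differences and overlap in them, and their sizes are a description. The T10 mean was the higher at 68 of them (91.9%), against 52% of all probe sets, with a median difference of 0.46 log2, against 0.01. The difference was at least 0.7 at 23, and 12 had no overlap. Examples are a second jbug probe set (difference 3.43) and Tsp (2.90), both with overlap. The jbug value is above the 2.98 of its member probe set. The 6 with a lower T10 mean belong to CG42268, CG42336, CG43658, Syb, TrpRS and trol. At RpS29, a ribosomal protein gene, the member probe set differed by 0.78 and the other 2 by 0.02 and 0.03. These probe sets read the same RNA and are not further samples.

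Some member genes lay next to each other in the RefSeq annotation (Release 6 plus ISO1 MT). Of 211 member genes with a place among 11791 protein-coding genes, 37 (17.5%) neighboured another, in 20 pairs, beside 3.52% of all genes. In 9 pairs the gene bodies overlap by their start and end positions. Whether the probes of both partners lie in shared sequence was not checked, and no source used here gives the strand of the labeled cDNA. A contribution of 1 partner to the signal of the other was thus not tested. Among these pairs, rn overlaps RacGAP84C, which read 6.56, 8.20 and 5.57 in T10 against 4.87 to 5.15 and was highest in the same array as rn. Likewise sona overlaps CG15800, at 7.31, 5.32 and 5.08 in T10 against 4.62 to 4.98, which was highest in T10 replicate 1 as sona was. Pairs ex and crq, haf and nis, Rcd2 and CG13250, Cad87A and CG14731, SKIP and Gld2, sdk and CG13362, and Myo10A and Rab9Fb overlap too. Neighbours that do not overlap include a run of CG2871, CG15471, CG6978 and CG2861, each highest in T10 replicate 2, and the pairs CG9689 and CG9691, Proc-R and CG15472, TkR99D and CG7896, and frm and sinu.

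Of 36 gene lists, 16 held at least 1 member. Of 551 listed genes on the array 25 were members, against 212 of all 11982 named genes (1.77%). Axon guidance genes counted 3 members of 28 (unc-5, Ten-a and Ten-m), and the zona pellucida and apical matrix list 2 of 19, with median differences of 0.25 and 0.79 log2. These 2 were the adhesion gene ed and Ptp10D, which overlapped at its probe set in the list (clearance -0.20). The matrix genes dpy and pio of that list differed by 4.13 and 3.95 with overlap and were not members. The trachea and chitin list had a median difference of 1.09 but 0 of 17 genes were members, and 0 of 18 midgut identity factors were members at a median of -1.11. A median can thus be high with no member, because the groups overlapped.

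In bulk tissue, more cells of a type and more RNA per cell cannot be told apart. Marker genes of trachea and of epidermis and disc moved with these probe sets. The summed level of 11 trachea markers, on the linear scale, was 12405 to 27559 in T10, 1879 to 15475 in T2 and 1139 to 2758 in T1, and T2 replicate 3 held the 15475. That of 11 epidermis and disc markers was 4867 to 12362 in T10, 1478 to 5871 in T2 and 668 to 945 in T1, with T2 replicate 3 at 5871. Of these markers 0 and 1 (Cpr49Ac) were members, and 3 and 0 were below the array median on all 9 arrays. The tracheal FGF receptor gene btl averaged 8.11 in T10 and 9.46 in the early arrays. The part of these cell types in the differences was not tested.

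Markers of other tissues held at most 1 member a list, beside 1.77% of all named genes. The 19 hemocyte markers summed to 2660 to 3360 in T10, 2613 to 4145 in T2 and 2469 to 3422 in T1, and 11 were below the array median throughout, among them Hml at a mean of 4.75 in T10 and 4.80 early. The 1 member among them was crq (croquemort), a scavenger receptor gene, at 9.47, 9.82 and 9.12 in T10 against 8.30 to 8.93 (median 8.57). The 16 muscle markers had a median difference of -0.06 log2 and summed to 4289 to 4792 in T10, 1834 to 5081 in T2 and 1458 to 4033 in T1. The member among them was Zasp52, a gene for a protein of muscle Z discs and of integrin adhesion sites, at 11.29, 11.41 and 10.95 in T10 against 8.97 to 10.86 (median 10.06). These sums include Zasp52, which was chosen for being high in T10, so they do not show a rise of the list as a whole. None of the fat body (8), ovary (22), enterocyte (12), enteroendocrine (14), progenitor (10), neuron and glia (9) or Malpighian tubule (9) markers was a member. Beside a share of 1.77%, a lack of members in lists this short does not tell whether these tissues were present. The 10 progenitor markers had a median difference of -1.15 log2 and summed to 5845 to 7509 in T10, 8654 to 14281 in T2 and 10424 to 14933 in T1.

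Many members with large differences have only a CG number as a name, 76 of the 212 genes. CG9689 read 10.48, 9.97 and 9.09 in T10, against 3.89 to 8.61 (median 4.64), 22.8-fold, and its neighbour CG9691 12.46, 12.35 and 12.53, against 8.11 to 12.24. CG12964 read 11.57, 10.62 and 10.11 in T10 and 10.08 in T2 replicate 3, while its other early arrays lay between 5.65 and 6.13. CG13705 was low in T10 replicate 1 and high in the others, at 7.34, 11.01 and 10.75, against 6.51 to 6.96 in the early arrays, where T2 replicate 3 was at 6.78. Of the 6 probe sets with a difference of at least 4 log2, 3 are unnamed. The largest of them, 1625890_at, read 13.30, 13.48 and 12.94 in T10, against 6.67 to 12.93, of which T2 replicate 3 held the 12.93.

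The remaining probe sets of the 20 largest named ones fell into the same forms. CG1299 (15.3-fold) and CG7896 (8.22-fold) were lowest within T10 in replicate 3. CG1299 read 12.03, 10.72 and 9.43 in T10, against 4.96 to 9.04 (median 6.76), and CG7896 9.14, 9.04 and 7.72, against 4.88 to 7.68 (median 5.18). CG6398 and CG4115 were 13.3- and 10.2-fold higher in T10, with T2 replicate 3 at positions of 0.960 and 0.850. The intraflagellar transport gene Oseg4 read 8.85, 9.50 and 8.28 in T10, against 4.69 to 8.10 (median 5.12), with T2 replicate 3 the highest early array.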

How the data were processed

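Values are RMA expression values on the log2 scale, deposited by the authors with 2 decimals. They applied RMA background correction and summarization in affy and affyPLM; neither the versions nor the strand of the signal are named in any source read. No further scaling was applied, and 183 control probe sets of 18952 were set aside. Precision is limited by the small number of arrays. The members and gene lists were chosen with earlier results of these data known, and the role groups, the position limits of 0.25, 0.5 and 0.75 and the class that turns on 1 T10 array after the values had been seen. Names came from probe sets with 1 platform symbol (13647 in all), updated through Entrez identifiers. Any such member could be named, with values for the 20 largest differences and for members of the lists. In a list, a gene is represented by its probe set with the highest mean. T2 was tested against T1 in limma 3.58.1 (R 4.3.3, lmFit and eBayes, 3 groups, all 9 arrays), with Benjamini-Hochberg adjustment over 18769 probe sets. The scripts were tested on simulated data. Alternatives were thresholds, scaling, floor, filter, array weights, moderation, the replicate number as a block, and leaving out arrays or replicate numbers. No sequences were used here.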

Additional observations from a re-analysis of the deposited data

How the results depend on the processing

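The number of probe sets above all early arrays depended on the arrays and limits used. Leaving out 1 array gave 309 to 1018 in place of 310, with 1018 without T2 replicate 3, which hold 309 of the 310, and 616 without T10 replicate 3. Leaving out a replicate number from every round gave 437 to 1260, the highest without replicate 3. Centering each array on its median gave 469 (304 shared), only probe sets above the median mean gave 188, and asking for a clearance of at least 0.7, an alternative added after seeing the data, gave 17. Thresholds of 0.5 and 1 log2 gave 449 and 217, quantile normalization 325 (287 shared) and a floor of 5 log2 278. The median position of T2 replicate 3 was 0.54, and 0.41 with arrays centered, also added later. For T2 against T1, no probe set of the 310 passed in limma except without T1 replicate 3, where 2 did, so leaving out an array gave 0 to 2. The median T2 minus T1 difference of 0.23 was -0.05 to 0.41 when 1 array was left out and 0.09 with array weights. With only the brightest probe set of a gene, 22 other probe sets in place of 68 had a higher T10 mean, because only 24 remain. Of 240 values of the 20 named members under 12 alternatives, 238 moved by less than 1 SD, and those of nvy (1.98) and sns (2.50) under the floor moved by more.

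Replicate numbers follow the order in which the samples are listed. Deviations of same-numbered T2 and T1 arrays correlated at 0.02, -0.12 and 0.10, and those of other-numbered ones at -0.23 to 0.27. Same-numbered arrays correlated at -0.01, 0.12 and 0.19 between T10 and T1, and at 0.06, -0.28 and 0.002 between T10 and T2. With 3 arrays a round these values cannot decide whether the numbers pair the samples. With the replicate block, in which each T10 array had only to exceed the early arrays of its own number, 520 probe sets met the rule and all 310 were among them. With the replicate number as a fixed or random block, 0 of the 310 passed between T2 and T1.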
